A study of Mus musculus with 6 samples.

Results

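The 10 genes described here encode enzymes that make, modify or break down the galactolipids and long-chain lipids of myelin. They were chosen by name, and all 10 of 10 were found by their Ensembl identifiers among the 32493 genes counted. RNA-seq was performed on neural stem cells (NSCs) from C57BL/6J mouse embryos at E14.5, taken from around the lateral ventricles and cultured for 3 generations. The study's list of resources gives the source of its NSCs as the cortex. The cko embryos carried floxed alleles of miR-151, which lies in an intron of *Ptk2*, together with Emx1-IRES-Cre, whose recombinase is expressed in the dorsal telencephalon. The ctrl embryos, labelled wt, carried the same floxed alleles without Cre. The share of each culture that came from the Cre domain is not given in the sources used here, and although the study describes the genotypes as littermates, no source ties a library to an embryo or litter. The p-values therefore measure the spread between these libraries, which may be technical. The column of ctrl replicate 2 equalled the rounded mean of ctrl replicates 1 and 3 in 32493 of 32493 genes and was counted in no n. The comparison was therefore made between 2 ctrl libraries (replicates 1 and 3) and 3 cko libraries (replicates 1, 2 and 3), with 17883796 to 23335736 counts each. The targeted miRNA was not analysed here, so the counts give no check of the deletion. The study itself reported lower miR-151-5p in cko NSCs by RT-qPCR, with *Ptk2* RNA and protein unaltered. *Sox2* and *Nes*, which mark NSCs, were read at 556 to 626 and 471 to 1068 normalized CPM (counts scaled to the library total and the TMM factor of edgeR) over the 5 libraries.

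Myelin is the multilayered membrane that oligodendrocytes wrap around axons, and it is rich in galactosylceramide and its sulfated form, sulfatide. Both are built on ceramide, a sphingoid base joined to a fatty acid, and in myelin that fatty acid is often very long and hydroxylated. Ceramide can instead receive phosphocholine and become sphingomyelin, a lipid of all cell membranes, so several enzymes of the route also serve cells that make no myelin.

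Of the 10 enzymes, 6 were lower in cko NSCs by edgeR's quasi-likelihood test (adjusted p under 0.05, Benjamini-Hochberg over all genes tested), and 8.57% of the 16710 genes tested were lower by this rule. These were *Fa2h*, *Elovl7*, *Gal3st1*, *Sgms1*, *Ugt8a* and *Degs1*, with levels in cko NSCs that ranged from 4.22% to 73.4% of those in ctrl. None was higher at an adjusted p under 0.05 in edgeR or in DESeq2, against 7.86% of all genes, and 1, *Galc*, was higher at an unadjusted p under 0.05. The study's threshold, an absolute log2 change above 0.9 with an unadjusted p below 0.01, was applied there to DESeq2 and here to edgeR. By it, 3 of the 10 were lower (*Fa2h*, *Elovl7* and *Gal3st1*) and 0 higher, against 4.17% and 2.39% of all genes. With DESeq2 on the same 5 libraries, 3 were also lower and 0 higher. The median log2 change of the 10 was -0.54, and that of all genes tested was -0.0026. In bulk libraries, fewer cells of a type and less RNA per cell cannot be told apart.

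**Figure D1:**
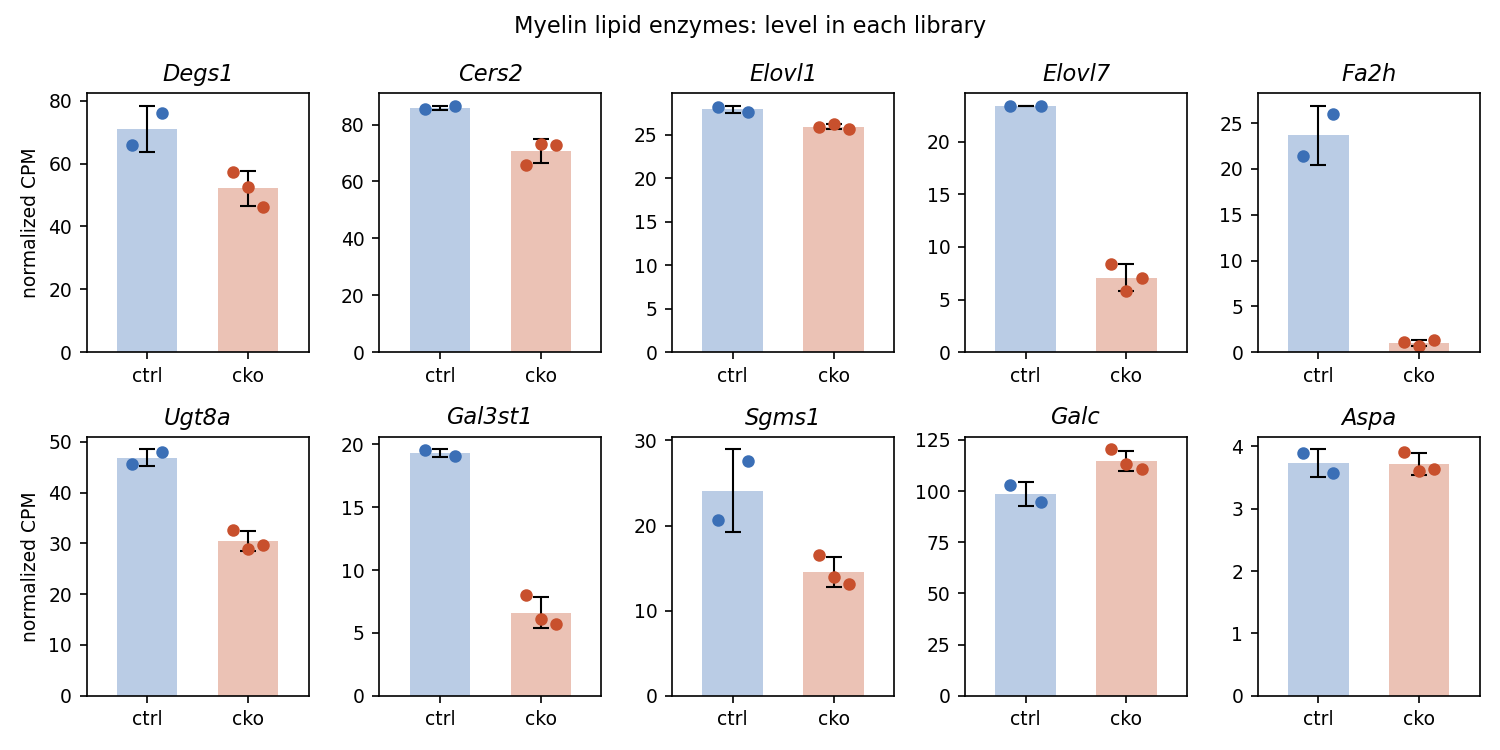
Level of each enzyme in normalized CPM (vertical axis, from 0, scaled per gene) in ctrl (2 libraries) and cko NSCs (3 libraries), with points for libraries, bars for means and error bars for SD. The cko libraries lie below both ctrl libraries for 8 enzymes, above both for *Galc*, and among them for *Aspa*.

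Ceramide formation was represented by *Degs1* and *Cers2*. *Degs1* (ENSMUSG00000038633, GRCm38 chromosome 1, 182275772 to 182282804, minus strand) encodes the desaturase that converts dihydroceramide to ceramide. It was read at 65.8 and 76.2 normalized CPM in ctrl and at 57.5, 52.6 and 46.2 in cko libraries. The genotypes did not overlap, and cko replicate 1 lay closest to ctrl. Its log2 change was -0.45 (standard error 0.11, edgeR adjusted p = 0.0369). *Cers2* (ENSMUSG00000015714, chromosome 3, 95314791 to 95323599, plus strand), the ceramide synthase that prefers very long acyl chains, had 85.4 and 86.4 normalized CPM in ctrl and 65.9, 73.3 and 72.8 in cko libraries. All 3 cko libraries lay below the ctrl libraries, but its log2 change of -0.28 (95% interval -0.47 to -0.10) had an adjusted p of 0.0511 in edgeR. In DESeq2 its adjusted p was 0.0322. Its exons share 75 bp with those of *Setdb1* on the opposite strand, which had a log2 change of -0.16 (edgeR adjusted p = 0.142), and no strand setting is given in the sources used here.

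The enzymes that shape the acyl chain differed in how far they changed. *Fa2h* (ENSMUSG00000033579, chromosome 8, 111345135 to 111393824, minus strand) encodes the hydroxylase that adds the 2-hydroxyl group of myelin galactolipids. It was read at 21.4 and 25.9 normalized CPM in ctrl and at 1.06, 0.643 and 1.29 in cko libraries, from 489 and 486 counts against 19, 15 and 28. All 3 cko libraries were low, with a mean of 4.22% of ctrl. The log2 change was -4.57 (standard error 0.25, edgeR adjusted p = 0.000367), or 23.7-fold lower. *Elovl7* (ENSMUSG00000021696, chromosome 13, 108214404 to 108285683, plus strand), an elongase of long-chain acyl-CoAs, had 23.4 and 23.4 normalized CPM in ctrl and 8.39, 5.79 and 7.08 in cko libraries. It was 3.31-fold lower, with the ctrl libraries differing by less than the cko libraries did (log2 change -1.73, standard error 0.17, edgeR adjusted p = 0.00184). *Elovl1* (ENSMUSG00000006390, chromosome 4, 118428093 to 118432953, plus strand), the elongase that extends saturated chains to very long lengths, had 28.2 and 27.6 normalized CPM in ctrl and 25.9, 26.2 and 25.6 in cko libraries. These did not overlap, but the log2 change of -0.11 (95% interval -0.32 to 0.11) did not pass the test (edgeR adjusted p = 0.459). An exon at its 3′ end shares 53 bp with *Cdc20* on the opposite strand, an activator of the anaphase-promoting complex that rose from a mean of 56.8 to 136 normalized CPM (log2 change 1.26, edgeR adjusted p = 0.00239), and the part of those reads in the *Elovl1* counts was not tested.

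The galactolipid branch proper has a pair of steps. *Ugt8a* (ENSMUSG00000032854, chromosome 3, 125865271 to 125938619, minus strand) transfers galactose to ceramide and so makes galactosylceramide. It was read at 45.7 and 48.1 normalized CPM in ctrl and at 32.6, 28.9 and 29.7 in cko libraries. The cko libraries were all below ctrl, at a mean of 64.8%, and the log2 change was -0.63 (standard error 0.091, edgeR adjusted p = 0.00585). *Gal3st1* (ENSMUSG00000049721, chromosome 11, 3983636 to 3999326, plus strand) sulfates galactosylceramide to sulfatide. It had 19.5 and 19.1 normalized CPM in ctrl and 8.0, 6.13 and 5.70 in cko libraries. It fell to a mean of 34.2% of ctrl, with a log2 change of -1.55 (standard error 0.17, edgeR adjusted p = 0.00248).

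The sphingomyelin synthase gene *Sgms1* (ENSMUSG00000040451, chromosome 19, 32122727 to 32389714, minus strand) was read at 20.6 and 27.5 normalized CPM in ctrl and at 16.6, 14.0 and 13.1 in cko libraries. The genotypes did not overlap, although the ctrl libraries stood apart from each other, and the log2 change was -0.73 (standard error 0.16, edgeR adjusted p = 0.0262). *Galc* (ENSMUSG00000021003, chromosome 12, 98202294 to 98259459, minus strand), the lysosomal enzyme that removes galactose from galactosylceramide, had 103 and 94.6 normalized CPM in ctrl and 120.4, 113 and 111 in cko libraries. It was the only enzyme of the 10 with all cko libraries above ctrl, but its log2 change of 0.22 (95% interval 0.032 to 0.40, edgeR adjusted p = 0.105) did not pass the adjusted threshold. *Aspa* (ENSMUSG00000020774, chromosome 11, 73304992 to 73329596, minus strand) encodes the aspartoacylase that releases acetate from N-acetylaspartate for lipid synthesis in oligodendrocytes. It had 3.89 and 3.57 normalized CPM in ctrl and 3.92, 3.60 and 3.63 in cko libraries. The genotypes overlapped, and with 67 to 89 counts a library the 95% interval of its log2 change of -0.0085 ran from -0.48 to 0.47 (edgeR adjusted p = 0.982).

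The bases before the annotated start are shown for the 3 lower enzymes *Ugt8a*, *Gal3st1* and *Elovl7* and for *Elovl1*, the elongase that did not pass the test. They come from RefSeq on GRCm38.p6, which matched 9 of the 10 enzymes, with 16 start sites, and each runs 5′ to 3′ over the 250 bases that end just before the start. Capitals mark matches, on either strand, to any of 5 short motifs. The first was the promoter element known as the GC box, written GGGCGG. The second was its frequent companion near transcription start sites, CCAAT. An E-box of the kind bound by helix-loop-helix factors was searched as CAGCTG. For the SOX family of factors the core letters AACAAT were used. The last motif was the classical core promoter element TATAAA. Overlapping matches were each counted.
Ugt8a, chr3:125938653-125938902, minus strand: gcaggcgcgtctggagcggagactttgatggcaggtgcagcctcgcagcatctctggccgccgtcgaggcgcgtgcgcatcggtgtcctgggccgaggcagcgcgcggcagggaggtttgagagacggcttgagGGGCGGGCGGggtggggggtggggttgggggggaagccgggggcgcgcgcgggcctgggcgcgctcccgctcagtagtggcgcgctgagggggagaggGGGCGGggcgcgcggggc
Gal3st1, chr11:3983386-3983635, plus strand: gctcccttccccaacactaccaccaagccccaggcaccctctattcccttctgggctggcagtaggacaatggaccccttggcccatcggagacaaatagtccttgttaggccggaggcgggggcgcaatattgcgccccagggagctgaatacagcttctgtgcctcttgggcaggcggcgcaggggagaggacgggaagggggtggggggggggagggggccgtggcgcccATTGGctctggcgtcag
Elovl7, chr13:108214154-108214403, plus strand: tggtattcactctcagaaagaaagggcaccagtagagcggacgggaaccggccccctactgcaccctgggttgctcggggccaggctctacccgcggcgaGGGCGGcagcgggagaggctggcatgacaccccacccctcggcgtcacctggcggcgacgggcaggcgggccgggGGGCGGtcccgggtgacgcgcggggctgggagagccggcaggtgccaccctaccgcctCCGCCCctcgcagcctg
Elovl1, chr4:118427843-118428092, plus strand: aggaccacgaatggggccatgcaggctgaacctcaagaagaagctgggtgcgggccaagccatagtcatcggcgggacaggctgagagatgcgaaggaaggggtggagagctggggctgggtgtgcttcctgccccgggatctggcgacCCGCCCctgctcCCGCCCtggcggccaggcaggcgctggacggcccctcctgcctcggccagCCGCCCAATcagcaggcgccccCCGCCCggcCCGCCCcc

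The *Ugt8a*, *Elovl7* and *Elovl1* windows held 3, 3 and 5 GC boxes and the *Gal3st1* window 0, where 32.7% of the 32851 RefSeq windows held at least 1. A CCAAT match was present once in the *Gal3st1* and once in the *Elovl1* window (33.8% of all windows), where in *Elovl1* it overlaps a GC box. No E-box (13% of all windows), SOX core (9.42%) or TATAAA match (12.4%) was found in these 4 windows. Among all 16 windows of the matched enzymes, 4 held an E-box. These were windows of *Degs1* and *Sgms1*, which were lower, and of *Cers2* and *Aspa*, which did not pass the test. The 4 windows shown were GC-rich, with 76.8%, 65.6%, 73.6% and 72% G and C for *Ugt8a*, *Gal3st1*, *Elovl7* and *Elovl1*, against a median of 52.4% over all windows, and with 32, 11, 25 and 18 CpG dinucleotides against a median of 6. *Gal3st1* has 2 other annotated starts and *Elovl1* 1, and the windows of their most downstream starts held 56% and 58% G and C, 2 and 5 CpG dinucleotides and no CCAAT match. The *Aspa* window (chromosome 11, 73324638 to 73324887) was the only 1 of the 16 with a SOX core and with TATAAA matches, and it held 38.8% G and C. A GC box was present in 8 of the 16 windows, the count that compares with the share of all windows. These windows belonged to 6 of the 9 matched enzymes. *Ugt8a*, *Elovl7* and *Sgms1* among them were lower, and *Cers2*, *Elovl1* and *Galc* did not pass the test. A match of letters is a description and not evidence of binding.

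**Figure D2:**
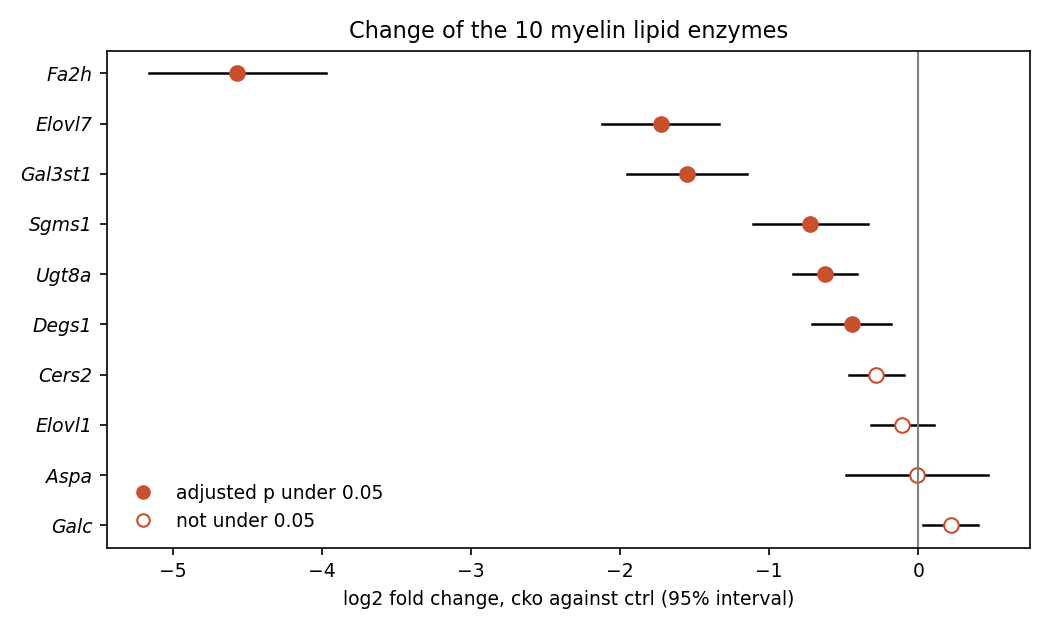
Log2 fold change of each enzyme in cko against ctrl NSCs (horizontal axis) with its 95% interval from edgeR, filled where the adjusted p was under 0.05. *Fa2h* at -4.57 lies apart from the other 9 enzymes, which range from -1.73 to 0.22.

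In all, 8 of the 10 enzymes had every cko library below both ctrl libraries, and *Galc* had every one above, where 24.3% and 25.4% of all genes tested were so arranged. In edgeR the calls of *Degs1* and *Sgms1* were lost without cko replicate 2 (adjusted p = 0.130 and 0.112) and without cko replicate 3 (0.128 and 0.113). Their log2 changes were -0.46 and -0.71 without cko replicate 2, and -0.38 and -0.67 without cko replicate 3. In the same fits the number of all genes called lower fell from 1432 to 416 and 457. Both calls were also lost without ctrl replicate 3, a fit that leaves 1 ctrl library. There the log2 changes of *Degs1* and *Sgms1* were -0.33 and -0.50, against -0.45 and -0.73 with all 5 libraries. Ctrl replicate 3 had the higher level of both genes, at 76.2 and 27.5 normalized CPM against 65.8 and 20.6 in ctrl replicate 1. *Fa2h*, *Elovl7*, *Gal3st1* and *Ugt8a* were lower at an adjusted p under 0.05 with each library left out in turn, at most 0.0441.

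Ratios within a library, which do not depend on scaling, were used to compare enzymes of successive or competing steps. The log2 ratio of *Gal3st1* to *Ugt8a*, sulfation against galactosylation, was -1.23 and -1.33 in ctrl and -2.03, -2.24 and -2.38 in cko libraries. That of *Ugt8a* to *Galc*, synthesis against breakdown of galactosylceramide, was -1.17 and -0.98 in ctrl and -1.88, -1.97 and -1.90 in cko libraries. For the 2 elongases, the log2 ratio of *Elovl7* to *Elovl1* was -0.27 and -0.24 in ctrl and -1.63, -2.18 and -1.85 in cko libraries. All 3 ratios were lower in every cko library than in either ctrl library. The ratio of *Fa2h* to *Degs1* differed most of the 5 ratios computed, with means of -1.59 in ctrl and -5.76 in cko libraries. The ratio of *Ugt8a* to *Sgms1*, the galactolipid against the sphingomyelin branch, overlapped between the genotypes, with means of 0.98 ± 0.24 (SD, n = 2) and 1.07 ± 0.10 (SD, n = 3). In two-sided exact permutation tests over libraries, the first 4 ratios had p = 0.2, the smallest that 2 against 3 libraries can give, and the last had p = 0.6, so that none could pass a threshold of 0.05.

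To compare levels between genes, normalized CPM were divided by the length of the longest coding transcript. In ctrl NSCs *Cers2* (38.8 CPM per kb), *Degs1* (34.7) and *Galc* (25.8) had the highest levels per kb, and *Aspa* (2.14) the lowest. *Gal3st1* (10.3 CPM per kb) and *Fa2h* (9.49), and likewise *Sgms1* (5.96) and *Elovl7* (5.83), overlapped between the ctrl libraries, and the other neighbours in the order did not. In cko NSCs *Fa2h*, at 0.400 CPM per kb, had the lowest level of the 10, and the neighbours whose library ranges overlapped were *Cers2* and *Galc*, *Sgms1* and *Gal3st1*, and *Aspa* and *Elovl7*. Per kb of merged exons, *Degs1* ranked above *Cers2* in both genotypes, although their library ranges overlapped in cko, and *Galc*, with merged exons of 14879 bp against a transcript of 3832 bp, ranked 7 of 10 in ctrl at 6.64 CPM per kb. *Fa2h* was the lowest of the 10 in cko NSCs by both lengths.

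**Figure D3:**
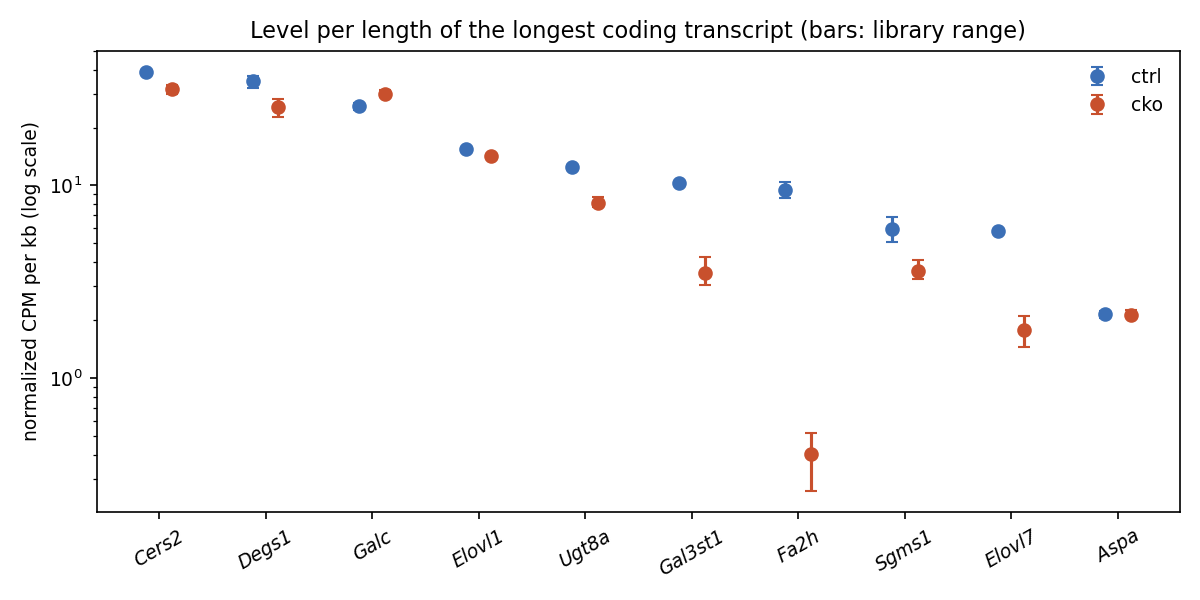
Level of each enzyme per kb of its longest coding transcript (vertical axis, log scale, normalized CPM per kb) in ctrl (2 libraries) and cko NSCs (3 libraries), with points for means and bars for the range of the libraries. *Fa2h* moves from 9.49 in ctrl to 0.400 in cko, while *Aspa* stays at 2.14 and 2.13.

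The other genes of the same pathways were taken from 5 lists of 62 genes, of which 58 could be tested. By edgeR, 4 of the 58 were lower and 3 higher at an adjusted p under 0.05, against 8.57% and 7.86% of all genes tested. Neither count exceeded the share of all genes, and the counts per list below have the same background. The median log2 change of the 58 was 0.07. Among 13 tested genes of ceramide synthesis, 1 was lower and 0 higher (3 at an unadjusted p under 0.05 in edgeR, and 1 adjusted in DESeq2). The lower gene was *Cers1*, the neuronal ceramide synthase, which shares its locus with *Gdf1* (log2 change -0.47, adjusted p = 0.0157). *Cers5*, the ceramide synthase with the highest mean normalized CPM in that list, had a log2 change of 0.07 (edgeR adjusted p = 0.579). Of 10 tested genes of fatty acid elongation, including *Elovl2* to *Elovl6* without *Elovl3*, 0 passed in either direction in edgeR or DESeq2 (1 lower and 1 higher at an unadjusted p under 0.05 in edgeR). The reductase *Tecr*, with the highest mean normalized CPM of them (not scaled to length), had a log2 change of 0.03 (edgeR adjusted p = 0.858).

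In the list of other ceramide branches, 1 of 10 genes was lower and 1 higher. The lower gene was the second sphingomyelin synthase *Sgms2*, with 5.63 and 3.15 normalized CPM in ctrl and 1.23, 1.5 and 2.07 in cko libraries (log2 change -1.45, edgeR adjusted p = 0.0292). The ceramide kinase gene *Cerk* rose from 72.0 and 61.9 to 110.3, 103 and 102 normalized CPM (log2 change 0.65, edgeR adjusted p = 0.00541), so that the genotypes did not overlap in either gene. *Samd8* encodes a synthase of the sphingomyelin analogue ceramide phosphoethanolamine and had the highest mean normalized CPM of the list. Its log2 change was -0.27 (edgeR adjusted p = 0.0543). Of 17 tested genes of sphingolipid breakdown, 1 was lower, the sphingosine kinase gene *Sphk1* (log2 change -1.17, edgeR adjusted p = 0.0491), and 0 were higher (3 at an unadjusted p under 0.05 in edgeR, and 1 adjusted in DESeq2). *Psap*, the saposin precursor, had the highest mean normalized CPM of that list and a log2 change of -0.18 (edgeR adjusted p = 0.209). Of 8 genes around N-acetylaspartate and acetate, 1 was lower and 2 higher. *Rimklb*, which joins glutamate to N-acetylaspartate, fell from a mean of 222 to 132 normalized CPM (log2 change -0.75, edgeR adjusted p = 0.00329). *Acss1*, a mitochondrial enzyme that makes acetyl-CoA from acetate, and *Acly*, which makes it from citrate, rose with log2 changes of 0.50 and 0.44 (edgeR adjusted p = 0.0319 and 0.0269). Of these 7 calls, only *Cerk* and *Rimklb* had an adjusted p under 0.05 with each library left out in turn. *Cers1* and *Acss1* lost theirs without any of cko replicates 1, 2 and 3, *Acly* without cko replicate 2 or 3, *Sgms2* without ctrl replicate 1 or any cko replicate, and *Sphk1* without ctrl replicate 3 or any cko replicate (adjusted p up to 0.167 in edgeR).

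**Figure D4:**
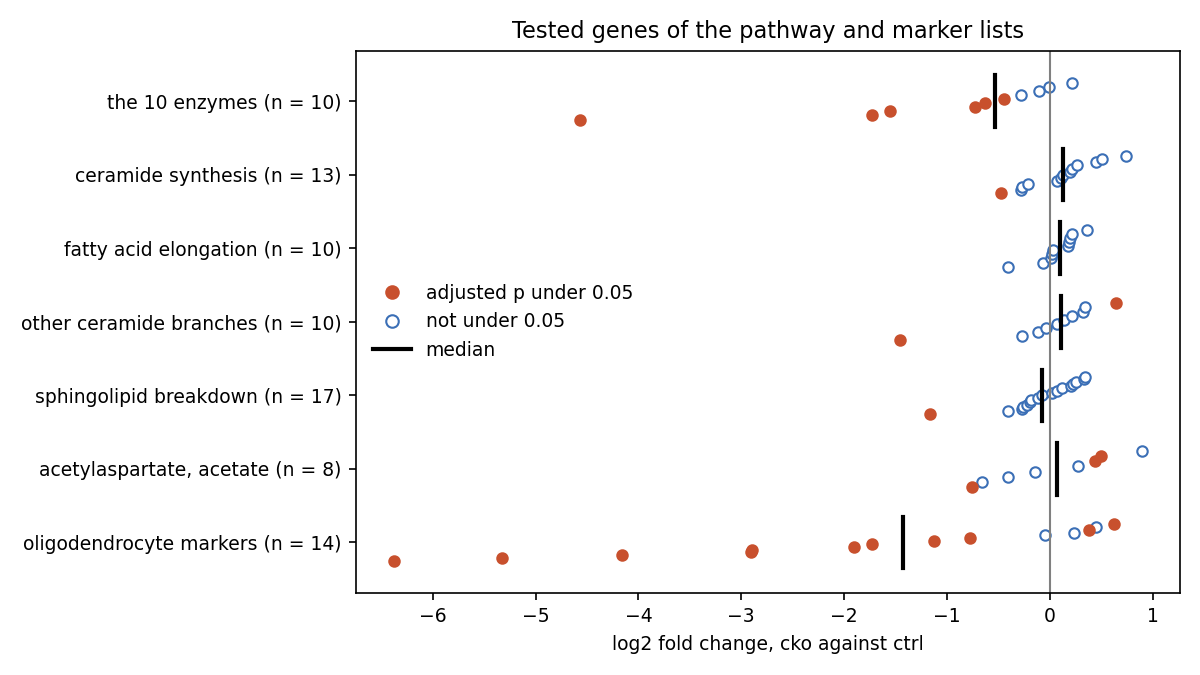
Log2 fold change in cko against ctrl NSCs (horizontal axis) of the tested genes of each list, 1 point per gene, filled where the adjusted p was under 0.05 in edgeR, with a bar at the median. The 10 enzymes have a median of -0.54 and the 14 oligodendrocyte markers of -1.43, and the medians of the 5 pathway lists lie between -0.07 and 0.13.

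Markers of the cells that such cultures can hold were read in the same fit. Of 15 oligodendrocyte lineage markers, 14 were tested, with 9 called lower and 2 called higher in cko NSCs by edgeR. *Gpr17*, of newly formed oligodendrocytes, was read at 703 and 742 normalized CPM in ctrl and at 286, 171 and 196 in cko libraries (log2 change -1.73, edgeR adjusted p = 0.00263), beside -1.73 for *Elovl7*. The lineage factors *Olig1* and *Olig2* were higher, with log2 changes of 0.63 and 0.38 (edgeR adjusted p = 0.0108 and 0.0444). The number of markers higher was 3 without ctrl replicate 3, 1 without cko replicate 1 and 0 without cko replicate 2 or 3. The myelin gene *Mbp*, named after its values were seen, had a log2 change of -4.16, beside -4.57 for *Fa2h*. The 3 tested markers that were not called were *Mog*, *Cspg4* and *Pdgfra*. Their log2 changes were -0.05, 0.24 and 0.45 (edgeR adjusted p = 0.947, 0.594 and 0.0942). The summed level of the 15 markers was 4038 to 4672 normalized CPM in ctrl and 3814 to 3952 in cko NSCs, most of it from *Olig1*, *Olig2* and, in ctrl, *Gpr17*. All 6 enzymes called lower, *Degs1* and *Sgms1* included, had the sign of the 9 markers called lower and the opposite sign to the 2 called higher. *Aspa* had a log2 change of -0.0085. The part of oligodendrocyte lineage cells in the result was not tested.

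Of 8 astrocyte markers, 5 were lower and 0 higher in edgeR (0 also at an unadjusted p under 0.05 and in DESeq2), and their summed level was 3899 to 4703 normalized CPM in ctrl and 1802 to 2711 in cko NSCs. Libraries stood apart within both genotypes, with a sum of 2711 in cko replicate 1 against 1802 and 1812 in cko replicates 2 and 3. *Gfap* was read at 1008 and 178 normalized CPM in the 2 ctrl and at 298, 86.7 and 122 in the 3 cko libraries (edgeR adjusted p = 0.126). *Aldh1l1* had 257 and 131 in ctrl and 187, 164 and 164 in cko libraries (edgeR adjusted p = 0.657), so that the genotypes overlapped in both genes. Those with the highest mean normalized CPM were *Slc1a3*, *Slc1a2* and *Aldoc*, a pair of glutamate transporters and a glycolytic aldolase. Their log2 changes were -0.79, -1.03 and -1.15 (edgeR adjusted p = 0.00639, 0.0118 and 0.0189). The number lower was 8 without ctrl replicate 3, 1 without cko replicate 2 and 2 without cko replicate 3. Of 8 NSC markers, 4 were higher and 0 lower in edgeR (5 higher and 0 lower at an unadjusted p under 0.05), and *Nes* rose from 471 and 537 to 874, 1068 and 1034 normalized CPM (log2 change 0.98, edgeR adjusted p = 0.00287). *Vim* and *Fabp7*, at higher normalized CPM than *Nes*, had log2 changes of 0.43 and 0.16 (edgeR adjusted p = 0.129 and 0.361). Of 7 tested neuronal markers, 2 were higher, among them *Elavl4* (log2 change 1.30), and 1 was lower, *Dcx* (-1.51), while *Map2* had a log2 change of 0.14 (edgeR adjusted p = 0.248). The 8 microglial markers summed to 0.0460 to 1.12 normalized CPM in any library, with *Cx3cr1*, *Tmem119* and *Itgam* at 0 in all 5 and *P2ry12*, *C1qa* and *C1qb* at most 0.437, and 0 of the 8 could be tested. Of the endothelial and mural list, 4 genes were tested and 0 called in edgeR or DESeq2, and also 0 at an unadjusted p under 0.05. Its level came almost wholly from *Cspg4*, which the oligodendrocyte list also holds, and *Kdr* and *Pdgfrb* were at means of at most 5.27 normalized CPM, with *Cdh5* at 0 in all libraries. Of 6 markers of Schwann cells, the myelinating glia of peripheral nerve, 3 were tested and *Egr2* was lower (log2 change -1.53, edgeR adjusted p = 0.00472), while *Prx* and *Ngfr* had means of at most 3.57 normalized CPM. The part of these cell types in the changes of the 10 enzymes was not tested.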

How the data were processed

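Raw counts per Ensembl gene had been deposited by the authors, who aligned filtered reads to mm10 with HISAT2, whereas the sample labels name GRCm39. The counting tool, annotation and strand setting are not given in the sources used here, so genes that overlap or have near-identical copies are uncertain. In the deposited table, ctrl replicate 2 holds for every gene a rounded average of the other ctrl columns and was left out, and the remaining 5 columns hold raw counts. Of 32493 identifiers, 31836 were given a name, position and length by GENCODE M21 (GRCm38).

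Genotypes were compared by edgeR 4.0.16 under R 4.3.3 (filterByExpr with genotype as group, 16710 genes, TMM, glmQLFit and glmQLFTest), and p-values were adjusted by Benjamini-Hochberg over all genes tested. Levels are CPM (counts per library scaled to a common total) normalized by TMM over the tested genes, and errors are SD over libraries. A floor of 3 counts corresponds to 0.129 to 0.168 CPM and covers counting error only. The fits were tested on simulated data, where the share of false calls was above the nominal level with both tools and higher with DESeq2 than with edgeR. As alternatives, DESeq2 1.42.0 replaced edgeR, size factors by median of ratios replaced TMM, the filter on low counts was changed or dropped, each library was left out, all 6 columns were used, and the replicate number was added as a block.

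The 10 enzymes, the lists and the tests were chosen with earlier results of these data known, as was the use of 5 libraries. The genes named were the 10 enzymes, from each pathway list up to 4 called genes per direction with the smallest p and the gene with the highest mean CPM, and from each marker list the 3 with the highest mean CPM. *Sox2*, *Mbp*, *Mog*, *Pdgfra*, *Gfap*, *Aldh1l1*, *Cdh5*, *Cx3cr1*, *Tmem119*, *Itgam* and the overlapping genes *Setdb1* and *Cdc20* were added after their values were seen. Motifs were searched after the changes were known. The start of *Fa2h* was not used here. Figures were drawn with matplotlib 3.10.9.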

Additional observations from a re-analysis of the deposited data

How the results depend on the processing

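Over 12 alternatives, *Fa2h*, *Ugt8a*, *Gal3st1* and *Elovl7* were lower at an adjusted p under 0.05 in each, and *Degs1* and *Sgms1* in 8. *Cers2* passed in 7 and *Galc*, as higher, in 2, both with all 6 columns (1 enzyme higher in edgeR and 1 in DESeq2). Only *Aspa* changed sign, to 0.044 without ctrl replicate 1, 0.0053 without cko replicate 2 and 0.017 with the replicate block, with -0.063 without ctrl replicate 3 as the lowest value. The deviations of same-numbered libraries had correlations across genes of 0.2 for replicate 1 and 0.057 for replicate 3, and 2 pairs are too few to show whether the numbers pair littermates, so they were not treated as pairs. With that block, 4 enzymes were lower in edgeR (*Degs1* and *Sgms1* had an adjusted p of 0.0607 and 0.0520), 0 other ceramide-branch genes were lower and 1 acetate gene higher. The counts of all genes, 1432 lower and 1314 higher, became 2237 lower without a filter, 2794 and 2865 with all 6 columns in edgeR, and 2630 and 2593 with all 6 in DESeq2.

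With all 6 columns, edgeR and DESeq2 both gave 3 lower and 3 higher genes of ceramide synthesis, 3 and 3 of breakdown, 2 lower of other branches, 2 lower of acetate and 1 lower of elongation, with 2 higher of elongation in edgeR and 1 in DESeq2. DESeq2 on 5 libraries gave 1 higher of ceramide synthesis, 2 lower of other branches and 1 higher of breakdown. Without a filter there were 1 higher of ceramide synthesis, 1 lower and 1 higher of elongation, 2 lower and 2 higher of other branches, 3 lower of breakdown, 2 lower of acetate and 2 lower neuronal markers. With 10 counts required in every library, 2 of ceramide synthesis and 2 of other branches were lower and 1 oligodendrocyte marker higher, and median-of-ratios size factors also left 1 higher. These causes were not tested.

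With each library left out in turn, the counts of all genes ranged from 416 to 2062 lower and from 317 to 1812 higher. The counts ranged from 0 to 1 lower and 0 to 1 higher for ceramide synthesis, 0 to 1 and 0 to 4 for elongation, 0 to 1 and 1 to 3 for other branches, 0 to 2 and 0 to 1 for breakdown, and 1 to 4 and 0 to 3 for acetate. They ranged from 0 to 3 higher for oligodendrocyte markers, 1 to 8 lower and 0 to 1 higher for astrocyte markers, 1 to 2 lower for neuronal markers, and 0 to 1 higher for endothelial and for Schwann cell markers. The difference in log2 ratio ranged from -0.94 to -0.75 for *Ugt8a* to *Galc* and from -0.082, without ctrl replicate 3, to 0.26 for *Ugt8a* to *Sgms1*. With 2 ctrl libraries, *Aspa* at 67 to 89 counts and *Fa2h* in cko at 15 to 28 counts have the least depth of the 10. Leaving out a ctrl library leaves 1, which is assumed to vary like the cko libraries.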
